A study of Mus musculus with 4 samples.

Results

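The genes of the cytosolic ribosomal proteins were examined in mouse fibroblasts that carried or lacked a working copy of the zinc transporter Zip13. Members were all genes whose symbol is Rpl or Rps followed by a number, together with Rpsa, Rplp0, Rplp1 and Rplp2, and without the Rps6k kinases. The rule gave 69 of 22180 genes tested, 42 with large subunit symbols and 27 with small subunit symbols. Fibroblasts from wild-type mice (WT) and from Zip13-/- mice (labelled Zip13KO) had been profiled on Affymetrix Mouse Gene 2.0 ST arrays, with 1 array for each of 2 biological replicates per group. The study asked how zinc balance in and around the Golgi bears on these cells. The labels give no strain, age or sex of the animals, no tissue of origin of the cells, and no account of which part of Slc39a13 (the gene of Zip13) was altered. They call the replicates biological but name no separate animals or cultures, so p-values cover only the spread of these samples, part of which may be technical.

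The cytosolic ribosome translates the messages of the nuclear genome. Its small subunit decodes the mRNA, and its large subunit joins amino acids and releases the chain through an exit tunnel. Each subunit is built in the nucleolus from ribosomal RNA and proteins, most of which come from a single active gene with many silent processed copies elsewhere in the genome. Ribosomal protein messages usually start with a C and an unbroken run of pyrimidines, the terminal oligopyrimidine (TOP) tract, through which growth signals acting by mTORC1 and LARP1 set their translation. Arrays measure message levels and not that translation.

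The start sites of 4 members that fell by small amounts, of Rpl39l and Rpl39, of Rps4x and of the pair of Rps27 and Rps27l are shown first, because the TOP tract is a feature of such messages. Those of Rpl17 and Rps4l are not shown. The windows hold 20 bases before and 20 bases from the annotated start onward, 5′ to 3′ on the strand of the gene, from RefSeq on GRCm38.p6. Capitals mark a C followed by at least 4 pyrimidines, read from a C that lies within 5 bases of the start, and sought on the sense strand only. Rps6, Rpl35 and Rpl39 hold such a tract, as do Rps27 and Rps27l at the starts shown. A further annotated start of Rps27l, not shown, does not hold it. Rps3, Rpl13, Rpl39l and Rps4x hold no tract whose C lies within 5 bases of the start. The windows of Rpl13 and Rpl39l do hold runs of pyrimidines led by a C, which begin further upstream. The windows are chr4:86857348-86857387 for Rps6 (minus strand), chr2:39005112-39005151 for Rpl35 (minus), chr7:99483690-99483729 for Rps3 (minus) and chr8:123102330-123102369 for Rpl13 (plus). Those of the paralogs and their main genes are chrX:37085203-37085242 for Rpl39 (minus), chr16:10170208-10170247 for Rpl39l (plus), chrX:102189372-102189411 for Rps4x (minus), chr3:90213629-90213668 for Rps27 (minus) and chr9:66946066-66946105 for Rps27l (plus).
Rps6: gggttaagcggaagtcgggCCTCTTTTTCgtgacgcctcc
Rpl35: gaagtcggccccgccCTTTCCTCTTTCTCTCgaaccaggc
Rps3: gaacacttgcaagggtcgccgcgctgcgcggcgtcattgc
Rpl13: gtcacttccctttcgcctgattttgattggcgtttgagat
Rpl39: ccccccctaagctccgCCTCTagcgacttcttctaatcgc
Rpl39l: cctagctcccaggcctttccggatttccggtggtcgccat
Rps4x: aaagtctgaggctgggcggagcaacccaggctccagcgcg
Rps27: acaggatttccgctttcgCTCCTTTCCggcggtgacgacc
Rps27l: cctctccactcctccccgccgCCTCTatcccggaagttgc

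Of the 69 members, 54 had an entry in the promoter table. At least 1 annotated start with the tract was found for 23 of these 54 genes (42.6%), against 5718 of 27025 genes in the whole table (21.2%). Among genes of the mitochondrial ribosome, whose messages are not TOP messages, it was found for 17 of 69 (24.6%). An annotated start can lie some bases away from the true one. A start without the tract therefore shows only that no such run begins within 5 bases of the annotated position. The start shown for Rpl35 lay inside its run of pyrimidines, which goes on upstream, and in Rps6 the tract began 1 base before the annotated start.

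Across the ribosomal proteins as a whole, few messages changed between the groups. In limma's moderated test with Benjamini-Hochberg adjustment over all genes, 1 of 69 members was higher on the Zip13KO arrays and 6 were lower at an adjusted p under 0.05, and 62 were not past the threshold. Over all genes, 7.00% were higher and 10.1% were lower, so the members' shares of 1.45% and 8.70% were below and close to that background. The median difference of the members was -0.061 log2 units (Zip13KO minus WT), against -0.0034 for all genes. The 95% interval of the difference lay within 0.5 log2 units of 0 on either side for 66 members. The other 3 were Rps4l, Rpl39l and Rpl17. Without Zip13KO replicate 2 the members' median was -0.031, without WT replicate 1 there were 3 lower members, and without Zip13KO replicate 2 there were 2 higher ones.

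**Figure D1:**
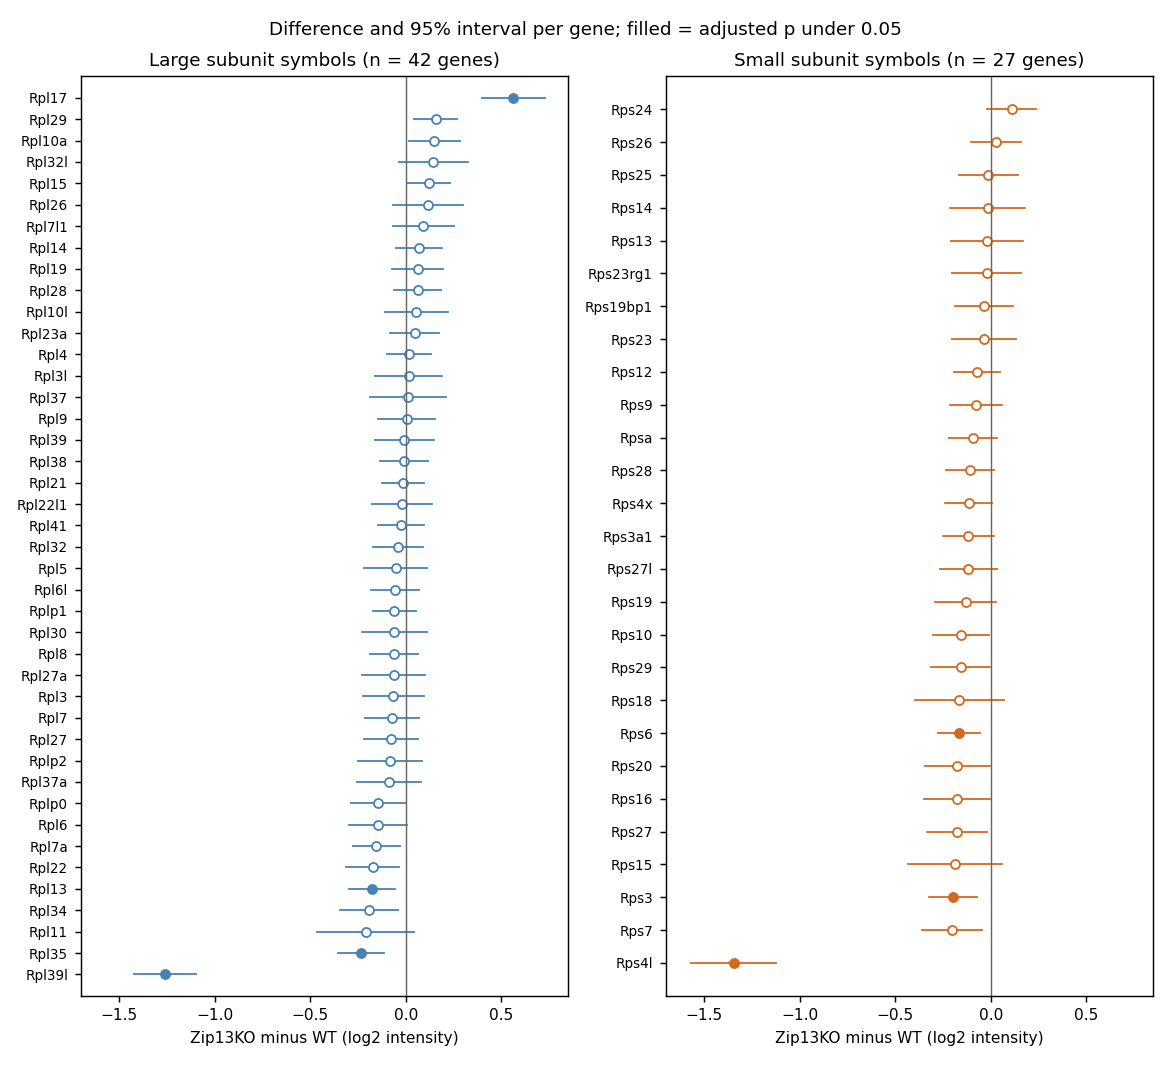
Difference between groups (Zip13KO minus WT, log2 intensity) and its 95% interval from limma for each of the 42 large subunit and 27 small subunit symbols, ordered by size, with filled dots for adjusted p under 0.05. Rps4l (-1.34), Rpl39l (-1.26) and Rpl17 (0.56) lie apart from the other members, whose differences run from -0.23 to 0.16.

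The largest differences were those of 2 paralog symbols. RefSeq lists Rps4l, a relative of the small subunit gene Rps4x, as a transcribed pseudogene. Its log2 intensity was 8.49 and 8.09 on the WT arrays and 7.00 and 6.89 on the Zip13KO arrays. The Zip13KO arrays lay below both WT arrays, which stood further apart than those of any other member past the threshold. Rps4l fell by 1.34 log2 units (SE 0.11, adjusted p = 3.21e-08), which is 2.54-fold lower, and without WT replicate 1 the difference was -1.14. Rpl39l encodes a variant, known from the testis, of the tunnel protein Rpl39. It stood at 8.89 and 8.84 in WT and at 7.56 and 7.65 in Zip13KO. Each group was tight and the groups lay over 1 log2 unit apart. Rpl39l fell by 1.26 (SE 0.08, adjusted p = 1.14e-09), which is 2.40-fold lower.

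The main genes of these paralogs were not past the threshold. Rpl39 was at 8.81 and 8.75 in WT and 8.75 and 8.79 in Zip13KO, with overlapping groups and a difference of -0.0082 (95% interval -0.16 to 0.15). Rps4x was at 11.84 and 11.87 in WT and 11.70 and 11.78 in Zip13KO, a difference of -0.12 (interval -0.24 to 0.01). For Rps4x the Zip13KO arrays lay below the WT arrays by a small step. The other 7 paralog symbols were not past the threshold either. Rps27l, a p53 target that resembles the zinc finger protein gene Rps27, was at 9.58 and 9.57 in WT and at 9.50 and 9.41 in Zip13KO. Its difference of -0.12 (interval -0.27 to 0.03) stood beside -0.18 for Rps27 (interval -0.34 to -0.02, adjusted p = 0.128). Rpl22l1 differed by -0.019 and its main gene Rpl22 by -0.17 (interval -0.31 to -0.04, adjusted p = 0.0829), which was -0.23 and passed without Zip13KO replicate 2 (adjusted p = 0.0141). Rpl7l1 was at 0.09 beside Rpl7 at -0.07, and Rpl6l, listed as a pseudogene, was at -0.06 beside Rpl6 at -0.15. The WT arrays of Rpl6 were at 11.27 and 11.05, and its difference was -0.26 and passed without WT replicate 2 (adjusted p = 0.0391) and was at -0.033 without WT replicate 1. The striated muscle form Rpl3l was at 0.01 beside Rpl3 at -0.07, and Rpl32l was at 0.14 beside Rpl32 at -0.04. Rpl10l, a testis form of Rpl10, was at 0.06, and Rpl10 had no row of its own. Near-identical genes may share signal on such arrays, so separate values within these pairs are uncertain.

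**Figure D2:**
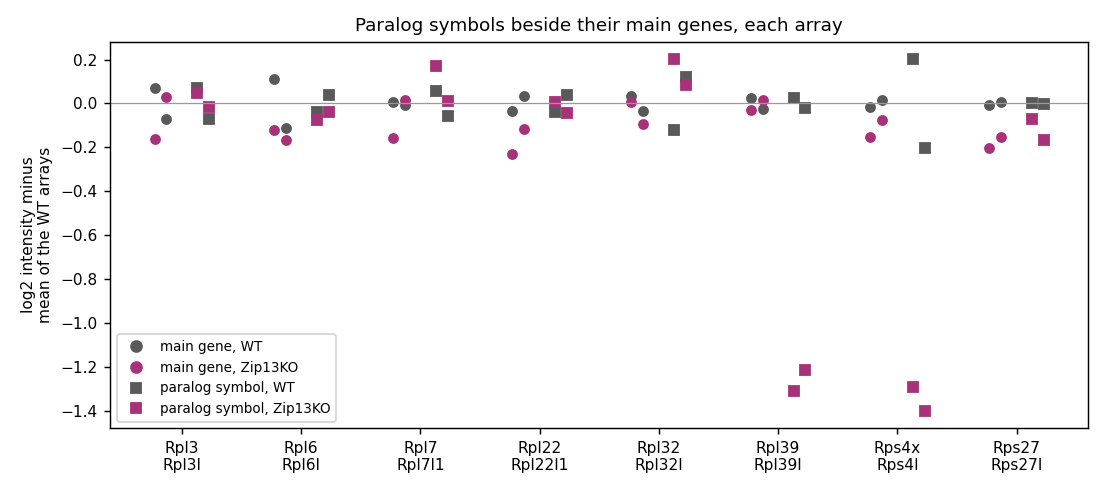
Log2 intensity of each array relative to the mean of the WT arrays, for 8 paralog symbols (squares) beside their main genes (circles), with WT in grey and Zip13KO in purple. On the Zip13KO arrays Rpl39l and Rps4l lie more than 1 log2 unit below WT, while Rpl39 and Rps4x stay within 0.2 of it.

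Rpl17 was the only member past the threshold in the upward direction. It encodes a protein of the large subunit that lines the exit tunnel. Its log2 intensity was 7.41 and 7.43 in WT and 7.96 and 8.00 in Zip13KO. The groups did not overlap and each was tight. Rpl17 rose by 0.56 (SE 0.08, adjusted p = 3.65e-05), which is 1.48-fold. Rpl4 (0.02), Rpl39 (-0.0082), Rpl23a (0.05), Rpl19 (0.06) and Rpl26 (0.12) were not past the threshold, and Rpl35, which sits at the tunnel's exit, fell. Of these 7 genes, grouped by position with their values known, 1 rose and 1 fell (14.3% each), with a median of 0.05. Over all genes 7.00% were higher and 10.1% were lower, and in so small a group a single gene sets the share.

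Rpl35, Rps3, Rpl13 and Rps6 fell by small amounts, each with both Zip13KO arrays below both WT arrays. Rpl35 was at 11.93 on each WT array and at 11.72 and 11.67 in Zip13KO, and fell by 0.23 log2 units (SE 0.06, adjusted p = 0.00701). Rps3, which lies where the mRNA enters the small subunit, was at 11.38 and 11.33 in WT and at 11.14 and 11.17 in Zip13KO. It fell by 0.20 (SE 0.06, adjusted p = 0.0287). Rpl13, of the large subunit, was at 11.82 and 11.89 in WT and at 11.69 and 11.67 in Zip13KO. It fell by 0.18 (SE 0.06, adjusted p = 0.0438). Rps6, the protein phosphorylated by S6 kinases, was at 12.67 and 12.68 in WT and at 12.50 and 12.52 in Zip13KO, and fell by 0.17 (SE 0.05, adjusted p = 0.0373). In fold terms these are changes of 1.12 to 1.18 times. With WT replicate 2 left out, the adjusted p of Rpl35 was 0.0569. Without WT replicate 1, WT replicate 2 and Zip13KO replicate 1 the adjusted p of Rps3 was 0.218, 0.0887 and 0.0568 and that of Rps6 was 0.177, 0.202 and 0.0502, and without WT replicate 1, WT replicate 2 and Zip13KO replicate 2 that of Rpl13 was 0.0923, 0.3334 and 0.0595. None of the 4 passed in a limma fit over all rows in place of 1 per gene (adjusted p = 0.0685 to 0.161), and Rps3, Rpl13 and Rps6 did not pass without an intensity trend (0.0907 to 0.168). Nor did Rps3, Rpl13 and Rps6 pass with the replicate number as a block.

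**Figure D3:**
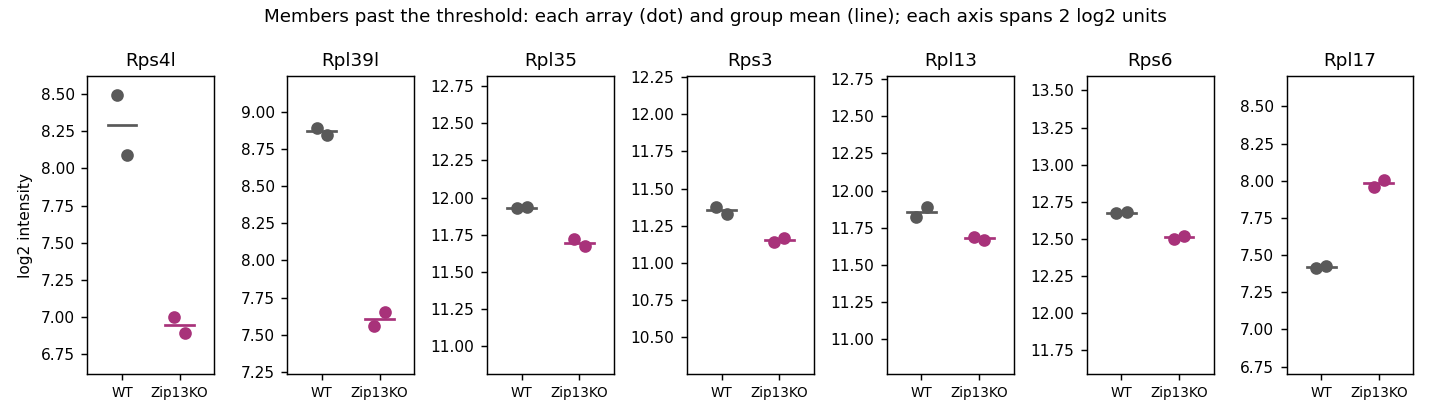
Log2 intensity on each array (dots) and group means (lines) for the 7 members past the threshold, with every vertical axis spanning 2 log2 units. The dots of the groups do not overlap for any of them, and the steps of Rpl35, Rps3, Rpl13 and Rps6 are a small part of those of Rps4l and Rpl39l.

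Members just short of the threshold lay on both sides of 0. Rpl29 was at 12.43 and 12.39 in WT and at 12.59 and 12.54 in Zip13KO, a difference of 0.16 (SE 0.05, adjusted p = 0.0611). Rps7, which can bind Mdm2, was at 9.42 and 9.50 in WT and at 9.33 and 9.19 in Zip13KO, a difference of -0.20 (SE 0.07, adjusted p = 0.0756). Rpl34 was at 9.18 and 9.12 in WT and at 8.98 and 8.94 in Zip13KO, a difference of -0.19 (SE 0.07, adjusted p = 0.0806). The groups did not overlap for any of the 3. Without Zip13KO replicate 2, Rpl29 passed (adjusted p = 0.0189), and without Zip13KO replicate 1, Rps7 passed (0.0226).

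The small subunit genes lay lower as a set than the large subunit genes. Of 27 small subunit symbols, 25 had a difference below 0, with a median of -0.12. Of 42 large subunit symbols, 26 did, with a median of -0.034. Among all genes 51.1% were below 0. The small subunit had 0 members higher and 3 lower in limma, with 0 higher and 9 lower at an unadjusted p under 0.05, and the large subunit had 1 higher and 3 lower, with 4 higher and 7 lower at an unadjusted p under 0.05. In limma the lower genes were 11.1% of the small and 7.14% of the large subunit, close to the 10.1% of all genes. Of all genes 7.00% were higher. At an unadjusted p under 0.05, 11.1% of all genes were higher and 14.8% were lower. Among genes of mean log2 intensity 10 or more, as were 13 of the 27 small subunit genes, these shares were 20.3% and 31.3%. Without the paralogs and without Rps19bp1 and Rps23rg1, which match the symbol rule but are not ribosomal proteins, 21 of 23 small subunit genes were below 0 with a median of -0.12, and 23 of 35 large subunit genes with a median of -0.052. The large subunit median was -0.0017 without Zip13KO replicate 2 and -0.018 with the mean of each gene's rows.

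The same contrast was taken within each array as the mean log2 intensity over large subunit genes minus that over small subunit genes. It was 0.3325 and 0.3331 in WT and 0.417 and 0.451 in Zip13KO. The Zip13KO arrays were both higher, so the difference between groups was 0.10, and it was 0.08 without the paralogs and the regulators. No test was made, because the smallest two-sided p that exact permutation of 4 arrays allows is 0.33. The level of this measure within an array has no meaning of its own, because rows differ in how brightly they bind.

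**Figure D4:**
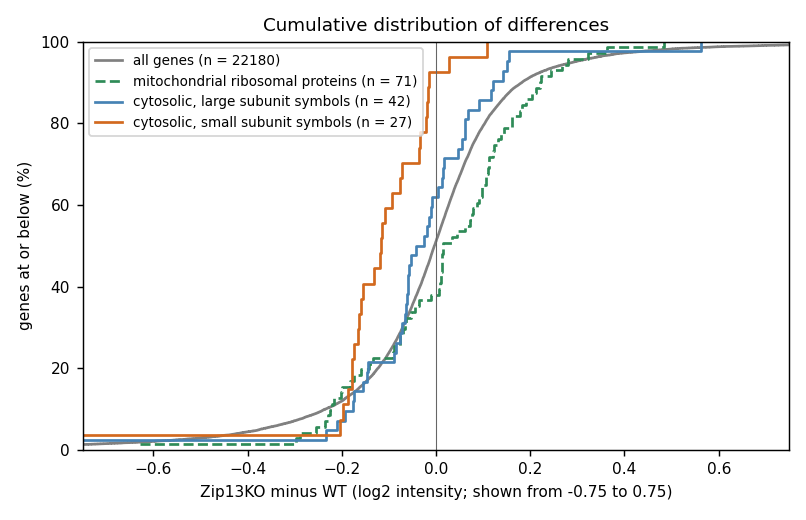
Cumulative share of genes (%) at or below each difference (Zip13KO minus WT, log2 intensity) for all 22180 genes, 71 mitochondrial ribosomal protein genes, and the large and small subunit symbols. Over most of its height the small subunit line runs left of the line for all genes, with a median of -0.12, whereas the mitochondrial line has a median of 0.015.

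Within the small subunit most genes of both the head and the body lay below 0. All 11 measured proteins of the head were below 0, from Rps3 at -0.20 to Rps25 at -0.014, with a median of -0.16 and 1 lower in the test. Of 12 proteins of the body, 10 were below 0, with a median of -0.08 and 1 lower, Rps6. The genes lower in the test are 9.09% of the head and 8.33% of the body, close to the 10.1% of all genes. The exceptions in the body were Rps24 (0.11, adjusted p = 0.294) and Rps26 (0.03). Rpsa, which doubles as a laminin receptor precursor, was at 12.04 and 11.97 in WT and at 11.86 and 11.97 in Zip13KO, a difference of -0.09 (interval -0.22 to 0.03). Rps19, the gene most often mutated in Diamond-Blackfan anaemia, was at -0.13 (interval -0.29 to 0.03). The head and body groups were drawn up with their values known, and the difference between them was not tested.

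In the large subunit, the stalk that recruits elongation factors held 3 measured genes, of which 0 passed in limma and 1 had an unadjusted p under 0.05. Rplp0, its base and a common reference gene, was at 10.99 and 10.82 in WT and at 10.76 and 10.77 in Zip13KO, a difference of -0.15 (interval -0.29 to -0.0014, adjusted p = 0.187). Rplp1 was at -0.06 (interval -0.17 to 0.05) and Rplp2 at -0.08 (interval -0.25 to 0.08). The proteins that carry the 5S ribosomal RNA and can bind Mdm2 when unassembled were Rpl5 at -0.05 (interval -0.22 to 0.11) and Rpl11 at -0.21 (interval -0.46 to 0.04). Rpl11 was at 7.23 and 6.76 in WT and at 6.67 and 6.90 in Zip13KO, so its WT arrays stood further apart than the groups did. Rpl11 passed the threshold without WT replicate 2 and also without Zip13KO replicate 2. Rpl38, known for its part in translating Hox messages, was at -0.011 (interval -0.14 to 0.12). The 3 rows of highest intensity, those of Rpl21, Rplp1 and Rpl4, differed by -0.02, -0.06 and 0.02. A further quantile normalization put Rpl21 at -0.16 and Rplp1 at -0.18, both past the threshold (adjusted p = 0.0200 and 0.0121), so differences at the top of the intensity range depend on the scaling.

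Groups did not overlap for 36 members, 29 lower and 7 higher on the Zip13KO arrays. These are 42.0% and 10.1% of members, against 27.3% and 24.1% of all genes. Among genes of mean log2 intensity 10 or more the shares were 42.0% and 30.5%, and among the 38 members as bright they were 47.4% and 13.2%. In the small subunit 16 of 27 genes were entirely lower and 1 was entirely higher, Rps24. In the large subunit 13 of 42 were entirely lower and 6 entirely higher. Among the last were Rpl15 (0.12, adjusted p = 0.158), Rpl10a (0.15, adjusted p = 0.126) and Rpl29. Most of these separations were too small to pass the moderated test.

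The members' rows were bright, which bears on what their counts are set against. Mean log2 intensity was 10 or more for 38 members, and 0 of these were higher and 4 were lower in limma, with 3 (7.89%) and 9 (23.7%) at an unadjusted p under 0.05. Among all 1468 genes this bright, 13.7% were higher and 22.6% were lower, with 20.3% and 31.3% at an unadjusted p under 0.05 and a median of -0.033. The bright members had a median of -0.063. Rows of 4 members did not reach the array median on at least 2 arrays, namely those of Rpl32l, Rplp2, Rps15 and Rps16 (-0.18, adjusted p = 0.179). Rplp2, Rps15 and Rps16 are needed in every cell, so a low row is no sign that the message was scarce. Without WT replicate 2 the difference of Rps15 went from -0.19 to -0.44 and passed the threshold (adjusted p = 0.00194), since that array was at 6.15 and the other WT array at 6.66.

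For 25 members the table held several rows, up to 8 for Rps12, and the brightest was used. Rows of the same gene differed in value for 24 of them, and for 11 of these they lay on both sides of 0. Rpl29 was at 0.16 on the row used and at -0.23 on the other, and its mean was -0.04. Rps24 was at 0.11, 0.17 and 0.56, and the mean of its rows passed the threshold. The row at 0.56 was at 9.09 and 8.80 in WT and at 9.51 and 9.49 in Zip13KO. Rpl7a and Rplp0 also had rows of opposite sign, at -0.16 and 0.13 for Rpl7a and at -0.15 and 0.12 for Rplp0. The rows of Rpl35 (-0.32, -0.23 and -0.12) and of Rpl13 (-0.34 and -0.18) all lay below 0. The 3 members with the largest differences had 1 row each, so no other row bears on them. A further 57 rows named a member of the family together with other genes and were left out. Their differences ran from -0.42 to 0.80 with a median of 0.0094, and 27 were below 0. RefSeq holds 89 protein-coding symbols that fit the rule. Of these, 67 were members, 14 were named only together with other genes, and 8 had no row under their name.

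**Figure D5:**
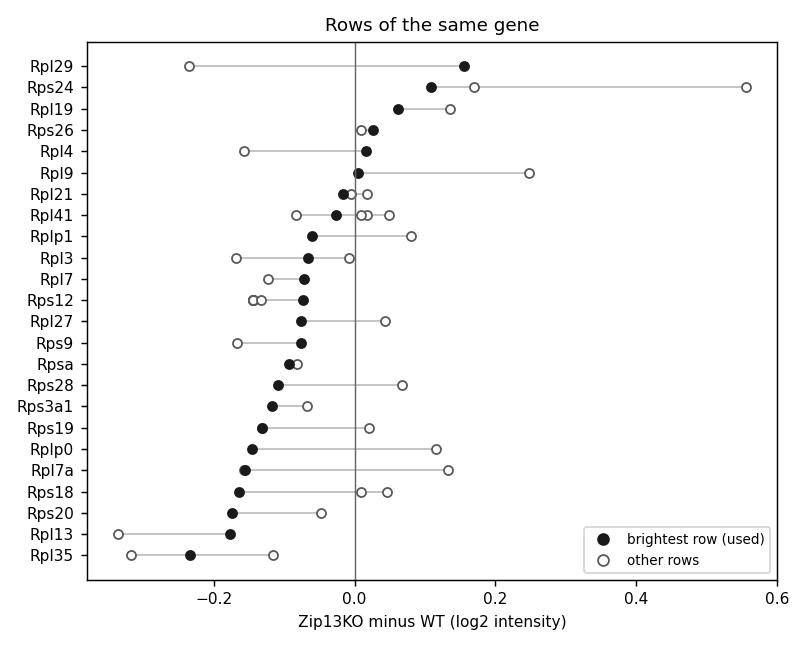
Difference (Zip13KO minus WT, log2 intensity) of each row of the 24 members that had several distinct rows, with the brightest row filled and the others open. The rows of Rpl29 (0.16 and -0.23) and Rps24 (0.11 to 0.56) spread widest, and those of Rpl35 and Rpl13 all lie below 0.

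The genes next to the 3 members with the largest differences were looked up in RefSeq order, 5 measured genes on each side, a choice made after the members' values were seen. Over all genes, 17.1% were past the threshold in either direction. Around Rpl39l, 6 of 10 neighbours were lower and 0 were higher in limma (7 and 0 at an unadjusted p under 0.05), with Carhsp1, an RNA-binding protein gene, at -0.59 and Atf7ip2 at -0.42. Around Rps4l, 0 of 10 were lower in limma (1 at an unadjusted p under 0.05) and 1 was higher, Caprin2 at 0.49. Around Rpl17, 4 of 10 were higher and 1 was lower. The 4 were Lipg, an endothelial lipase (1.34), Snord58b (0.90), Scarna17 (0.57) and Dym, a Golgi-associated protein (0.47), and the lower gene was Smad7 (-0.69). Snord58b is a small nucleolar RNA that is cut from an intron of the Rpl17 transcript, so its row and that of Rpl17 share a precursor. Without WT replicate 1 there were 3 lower neighbours of Rpl39l, without WT replicate 2 there were 4, and with every row in the fit there was 1. With WT replicate 2 left out Scarna17 was at 0.21 (adjusted p = 0.140).

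Genes of the machinery that works with these proteins moved in both directions, and their counts are read against the 7.00% of all genes that were higher and the 10.1% that were lower. Fau, which encodes a small subunit protein but whose symbol falls outside the rule, was at 0.14 (adjusted p = 0.139). Of 34 measured translation initiation factors, 4 rose (11.8%) and 7 fell (20.6%), with a median of -0.028, and a fit over all rows left 3 and 1. Mean log2 intensity was 10 or more for 21 of these 34. Among all genes this bright 13.7% were higher and 22.6% were lower, which is close to the shares of the list. Eif4a1, the helicase that unwinds the start of messages, rose by 0.73, and Eif6, which keeps the free large subunit from joining, rose by 0.49. Eif2s2 rose by 0.32 and the poly(A)-binding Pabpc4 fell by 0.38. Of 15 elongation and release factors, 0 rose in limma (2 at an unadjusted p under 0.05) and 1 fell, the release factor gene Gspt1 (-0.28), with a median of 0.04. Gspt1 missed the threshold without WT replicate 2 (adjusted p = 0.209) and in a fit over all rows (0.137), and further quantile normalization gave 2 higher and 3 lower of this list. Among 10 other messages with a TOP start, the host transcript Snhg6 fell by 0.54, Vim fell by 0.17 and Npm1 rose by 0.22, with a median of -0.12. Without WT replicate 1, Vim and Npm1 did not pass (adjusted p = 0.383 and 0.114), without WT replicate 2 this list had 4 lower genes, and without WT replicate 1 there were 3 lower initiation factors.

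Genes of ribosome assembly also moved in both directions. Of 79 assembly and nucleolar factors, 12 rose (15.2%) and 8 fell (10.1%), against 7.00% and 10.1% of all genes, with a median of 0.03. Mean log2 intensity was 10 or more for 25 of the 79, and among all genes this bright the shares were 13.7% and 22.6%. The counts of the assembly list were 3 and 1 in a fit over all rows, and 22 and 8 after further quantile normalization. Noc4l, needed for the small subunit, rose by 0.56, and Trmt112 rose by 0.35. Mdn1, an ATPase that remodels the nascent large subunit, fell by 0.41 and Znhit6 fell by 0.40. Of 16 genes of RNA polymerase I and its factors, 3 rose and 5 fell (1 and 3 in a fit over all rows), with a median of 0.03. Rrn3, which brings the polymerase to ribosomal DNA, fell by 0.42, the subunits Polr2l and Polr1e fell by 0.45 and 0.38, and Polr1b rose by 0.42. Of 25 genes in a broad list around mTORC1 and TOP translation, 5 rose and 0 fell in limma (2 were lower at an unadjusted p under 0.05), with a median of 0.02. Mycn, Rps6ka6, Mxi1 and the mTOR inhibitor Deptor rose by 0.44, 0.44, 0.42 and 0.42. Mycn, Rps6ka6 and Mxi1 are not parts of mTORC1, and Deptor is an inhibitor. The counts of this list therefore give no direction for mTORC1 activity or TOP translation, which were not tested. The assembly list had 9 higher and 2 lower without WT replicate 1, 4 and 6 without WT replicate 2, and 6 and 8 without Zip13KO replicate 2. With WT replicate 1 left out Mdn1 missed the threshold (adjusted p = 0.0666), and without WT replicate 2 the polymerase list had 1 higher and 4 lower.

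The mitochondrial ribosome, which is also encoded in the nucleus but translates only mitochondrial messages, is the nearest comparison. Of its 71 measured genes, 7 rose (9.86%) and 8 fell (11.3%), close to the 7.00% and 10.1% of all genes. The median was 0.015 and 27 were below 0. The counts were 2 and 1 in a fit over all rows, and 14 and 8 after further quantile normalization. Mrpl50 fell by 0.63, and Mrpl38, Mrpl2 and Mrpl42 rose by 0.48, 0.36 and 0.32. Of the 69 cytosolic members 51 were below 0. Without WT replicate 1 the mitochondrial list had 5 higher and 3 lower, without WT replicate 2 it had 4 and 2, without Zip13KO replicate 1 it had 5 and 5, and without Zip13KO replicate 2 it had 4 and 8.

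The cells' labels were checked against markers. Of 10 fibroblast markers, 9 lay above the array median on all arrays, the exception being Lum, and 1 rose and 5 fell (Pdgfra 1.04, Pdgfrb -0.92, Col1a1 -0.89, Fn1 -0.67). Their summed intensity was 13.80 and 13.74 on the log2 scale in WT and 13.25 and 13.34 in Zip13KO. Summed intensities of the marker lists of other cell types lay between 8.94 and 9.91 on all arrays. Above the array median on all arrays were 3 of 8 leukocyte, 5 of 6 epithelial, 2 of 6 endothelial and 3 of 6 skeletal muscle markers. That criterion alone therefore does not set fibroblasts apart. Of 8 leukocyte markers, 1 rose (Cd68, 0.40) and 2 fell (Cd14 at -0.32 and Csf1r at -0.26). Ptprc, Adgre1, Itgam and Lyz2 were below the array median throughout. Csf1r was above it on 3 arrays, and Cd68, Cd14 and Cd3e were above it on all 4. Without WT replicate 2 Cd68 did not pass (adjusted p = 0.562), and without Zip13KO replicate 2 Cd14 (0.0917) and Csf1r (0.255) did not, nor did Csf1r without WT replicate 1 (0.212). None of the epithelial (6), endothelial (6) and skeletal muscle (6) markers passed in limma, and 1 of each list had an unadjusted p under 0.05, namely Krt14 (-0.26, adjusted p = 0.0592), Cdh5 (0.20, adjusted p = 0.124) and Des (0.23, adjusted p = 0.0571). Krt14 was at -0.40 and passed without Zip13KO replicate 2 (adjusted p = 0.00185). The part of these shifts in the ribosomal protein results was not tested, and fewer cells of a type cannot be told apart from less RNA per cell. Slc39a13 itself differed by 0.04 (adjusted p = 0.820), and since the place of its probes is not known, this does not check the labels.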

How the data were processed

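Total RNA of fibroblasts was hybridised to 4 arrays, 2 per group. Per the submitters' processing notes, Affymetrix Expression Console and RMA were used, with no versions given. The deposited table holds 41345 rows of intensity on a linear scale, with array medians of 94.5 to 96.1, and log2 was taken of these deposited values. Rows with exactly 1 gene symbol (23521) were kept, 1814 with several symbols and 16010 with none were left out, and the brightest row stood for each of 22180 genes. limma 3.58.1 (R 4.3.3) fitted both groups with an intensity trend, and p-values were adjusted by the Benjamini-Hochberg method over all genes, with a threshold of 0.05. The number of arrays limits the precision. Array-to-array spread within a group was alike, with an SD of replicate differences of 0.118 in WT and 0.125 in Zip13KO.

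Members, role groups and gene lists were chosen with earlier results of these data known. By the naming rule, values are given for members past the threshold without overlap between groups, the 3 others of smallest p, paralogs with their main genes, Rpsa and the stalk genes, the 3 brightest and 3 dimmest members, and in each other list up to 4 genes past the threshold or else that of smallest p. Further members (role groups, rows that disagree) and neighbours were named after their values were seen. On simulated data with the same number of genes, 36% of changes of 0.25 and 100% of changes of 0.5 or more were recovered. Of 182 calls there, 14 were false. The simulation drew normal noise from the fit's own SDs and changed far fewer genes than passed in the data, so these rates may not hold for the data. The alternatives were a replicate block, a filter on low values, further quantile normalization, centring, other variance settings, other row choices, log2(value + 16) and leaving out each array.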

Additional observations from a re-analysis of the deposited data

How the results depend on the processing

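Of 458 comparisons of the 33 named members with alternatives, 423 kept their side of the threshold, 20 lost it, 15 gained it and 0 reversed among called values. Most of the 33 were not past the threshold in the main fit. Rps4l, Rpl39l and Rpl17 passed in all 14 alternatives and Rpl35 in 12. Rpl13, Rps3 and Rps6 passed in 8 each, and the 20 losses fell on these and on Rpl35. Members named outside the 33, such as Rpl11 and Rps24, are not in this tally. Leaving out each array gave 2921 to 3808 genes past the threshold over all genes, 1 to 2 higher members and 3 to 7 lower ones (large subunit 1 to 2 and 2 to 4, small subunit 0 to 0 and 1 to 4). The median of members ran from -0.085 to -0.031, that of the large subunit from -0.044 to -0.0017, that of the small subunit from -0.13 to -0.080, and the large minus small difference from 0.085 to 0.118. The filter gave 2 higher members, both of the large subunit. Quantile normalization gave 2 higher members, with 2 higher and 6 lower in the large subunit. Without an intensity trend there were 3 lower members, 1 of them small subunit. The mean of a gene's rows gave 2 higher members, 1 of them small subunit. With every row fitted, 1806 genes passed, 2 members were lower, 1 in each subunit. Without paralogs and regulators the large minus small difference was 0.081. The cause of these shifts was not tested.

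The replicate block gave 3364 genes, 3 lower members and 1 lower small subunit gene; Rps3, Rpl13 and Rps6 did not pass (limma adjusted p = 0.116, 0.151 and 0.135), Krt14 did (0.0229), and 6 and 5 assembly factors and 5 and 3 mitochondrial ribosomal genes were higher and lower. Replicate differences correlated at -0.158 between groups over all genes, which gives no sign that arrays of the same number deviated together. With so few arrays this cannot settle whether the shared numbers pair the samples, and the labels do not say. A crossed pairing, added after seeing the data, gave 5208 genes, 3 higher and 16 lower members, with 3 and 8 in the large subunit and 8 lower in the small subunit.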
